A study of Mus musculus with 12 samples.

Results

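NRF2, encoded by Nfe2l2, is the transcription factor that directs the response of cells to oxidants and electrophiles, and it was described here together with genes that it is known to activate. The members were chosen by name. Of 10 named genes, 8 had a probe among the 770 genes of the panel (Nfe2l2, Hmox1, Nqo1, Gclc, Txnrd1, Srxn1, Prdx1 and Osgin1), while the NRF2 repressor Keap1 and the glucose-6-phosphate dehydrogenase gene G6pdx were not analysed here. RNA of sorted mouse microglia, the resident macrophages of the CNS, was measured with the Neuroinflammation gene panel on a NanoString nCounter, in which each RNA molecule is captured by a colour-coded probe pair and counted without amplification. The groups were P-ERK1/2 High microglia of aged mice (samples 2, 5, 7 and 8), P-ERK1/2 Low microglia of aged mice (samples 3, 6, 9 and 12) and microglia of adult mice that were not separated by phosphorylation (samples 1, 4 and 10). Aged mice were over 80 weeks old and adult mice 12 to 20 weeks old, all were C57B6 mice that the labels call untreated, and each sample pooled the CNS of a male and a female. The separation rests on ERK1/2, kinases of the MAPK cascade, being phosphorylated at their activating threonine and tyrosine. A further adult sample, number 11, was excluded by the submitters for poor quality, so adult values below are those of 3 samples, with sample 11 given on its own.

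Several features limit what the groups stand for. The microglia were gated by an eYFP reporter that depends on the Cx3cr1 promoter, intermediate CD45 and absence of Ly6G, and the study's legend gives tamoxifen treatment for both ages, with a longer interval since treatment in the aged mice. All cells were dissociated enzymatically, fixed and permeabilized before RNA was taken, in every group. The adult cells were not gated on phosphorylated ERK1/2, so both comparisons with the adult group differ in gate as well as in age.

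Under resting conditions KEAP1 binds NRF2 in the cytoplasm and delivers it to ubiquitin-dependent degradation. Oxidants and electrophiles modify cysteines of KEAP1, NRF2 accumulates in the nucleus, pairs with a small MAF protein and binds antioxidant response elements near its target genes. The targets fall into several arms, namely heme breakdown (Hmox1), quinone reduction (Nqo1), glutathione synthesis (Gclc), and the thioredoxin and peroxiredoxin system (Txnrd1, Prdx1, Srxn1). In microglia, HMOX1 handles the heme taken up with red cell debris and is widely used as a sign of a stress-responsive state.

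The core of the antioxidant response element, TGACNNNGC, was searched on both strands in the RefSeq promoter windows (GRCm38.p6), each from 250 bases before to 50 bases after an annotated start. A window existed for 6 members (8 windows in all, 3 of them for Txnrd1), and 4 members had a match, in 1 window each. For comparison, 12.4% of all 32851 windows of 300 bases held the core. The matching stretches are shown because these 4 genes differ in the results that follow, with less signal of Nfe2l2, Txnrd1 and Prdx1 in P-ERK1/2 High than in P-ERK1/2 Low microglia as deposited (more on unscaled counts) and more of Srxn1. Capitals mark the core, and each sequence reads in the direction of its gene. The Nfe2l2 stretch lies at chr2:75704835-75704913 on the minus strand, with the core starting at position -240 from the start. The Txnrd1 stretch lies at chr10:82859054-82859182 on the plus strand, with the core on the opposite strand at -92. The Prdx1 stretch lies at chr4:116685406-116685534 on the plus strand, with the core on the opposite strand at -133. The Srxn1 stretch lies at chr2:152105542-152105570 on the plus strand, where the core, again on the opposite strand, begins at base 29 of the transcript.
Nfe2l2: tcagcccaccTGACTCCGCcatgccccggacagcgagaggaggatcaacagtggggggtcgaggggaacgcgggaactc
Txnrd1: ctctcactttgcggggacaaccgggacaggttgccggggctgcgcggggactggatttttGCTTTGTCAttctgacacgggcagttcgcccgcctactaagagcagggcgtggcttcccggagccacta
Prdx1: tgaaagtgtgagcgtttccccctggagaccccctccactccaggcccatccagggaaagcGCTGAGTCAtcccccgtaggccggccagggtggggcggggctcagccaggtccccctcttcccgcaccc
Srxn1: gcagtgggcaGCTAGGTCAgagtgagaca
A match describes these letters only. The windows of Nqo1 and Osgin1 held no match to this core.

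Total counts recovered from the deposited values ran from 650965 to 1539936 for P-ERK1/2 High, from 123798 to 157209 for P-ERK1/2 Low and from 137980 to 326575 for adult samples, with 1464449 in sample 11. The deposited value is a signal, the raw count multiplied by 1 factor per sample that equalises the geometric mean of 13 housekeeping genes, and these factors ran from 0.715 to 1.27 in P-ERK1/2 High and from 2.68 to 4.10 in P-ERK1/2 Low. Direction therefore depends on the scaling, and the median gene of the 770 had a log2 fold change between these groups that ran from -0.10 to 2.15 over 6 scalings. A member was taken as above background where its count exceeded the mean plus 2 SD of the negative control probes of the sample, and each of the 8 members was above background in all 12 samples. Groups were compared with limma on log2(value + 1), and calls required p under 0.01 together with a log2 difference larger than 1 in either direction. Fold changes below are on this scale, with Benjamini-Hochberg adjustment over 770 genes. The sources used here do not say whether P-ERK1/2 High and Low samples came from the same or from different mice. The tests treat all samples as independent, and their p-values measure only the spread between these samples, which may be technical in part. The RNA of a pool of cells cannot tell fewer expressing cells from less RNA per cell. Of 8 microglial markers, 8 exceeded background in every P-ERK1/2 High sample but only 2 in every P-ERK1/2 Low sample and 5 in every adult sample, and their summed signal was 2851 to 3544, 3371 to 3692 and 3487 to 3801 in that order. Csf1r made up much of this sum, with a mean of 1553, 2745 and 1846. Of the 8 markers, Tmem119, P2ry12, Sall1 and Gpr34 were called higher in P-ERK1/2 High than Low, beside 28.2% of all genes. Over the 6 scalings 3 to 8 were called higher, beside 146 to 659 of all 770 genes, while Csf1r was called lower under quantile normalization and under median-of-ratios scaling. P2ry12 and Gpr34 were above background in 0 of 4 P-ERK1/2 Low samples and Tmem119 and Sall1 in 1. Tmem119, Olfml3 and Fcrls were called lower in P-ERK1/2 Low than in adult samples, beside 2.73% of all genes. As deposited but not without scaling, Olfml3 and Fcrls were also called lower in P-ERK1/2 High than in adult samples, beside 7.66% of all genes. P2ry12 was called higher there, beside 29.2% of all genes.

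The members did not move together between the aged groups. As deposited, Srxn1 and Gclc were called higher in P-ERK1/2 High and Hmox1, Txnrd1 and Prdx1 lower, Nfe2l2 lay below the fold limit, and Nqo1 and Osgin1 overlapped. Thus 2 of 8 members were called higher, where 28.2% of all genes were, and 3 of 8 lower, where 9.61% of all genes were. Groups did not overlap for 6 of 8 members and for 49.4% of all genes. The median log2 difference was -0.60 over the members and 0.26 over all genes. Set against the median gene of each scaling, Nfe2l2, Hmox1, Nqo1, Txnrd1 and Prdx1 lay below it under all 6 scalings. Srxn1, Gclc and Osgin1 lay above it under all 6. The log2 distance from that median was -2.09 to -1.67 for Hmox1, -1.80 to -1.69 for Prdx1 and 1.61 to 1.89 for Srxn1. The split of calls changed with scaling. It was 1 higher and 4 lower under both median-of-ratios scaling and quantile normalization, 3 higher and 0 lower with a factor from the 6 most stable housekeeping genes, and 4 higher and 0 lower both without scaling and with scaling to the positive control probes. Over all genes the split of 217 higher and 74 lower became 177 and 121 under median-of-ratios scaling, 146 and 142 under quantile normalization, 361 and 4 with the 6 stable housekeeping genes, 595 and 1 without scaling, 659 and 0 with the positive controls and 156 and 33 in the plain test.

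**Figure D1:**
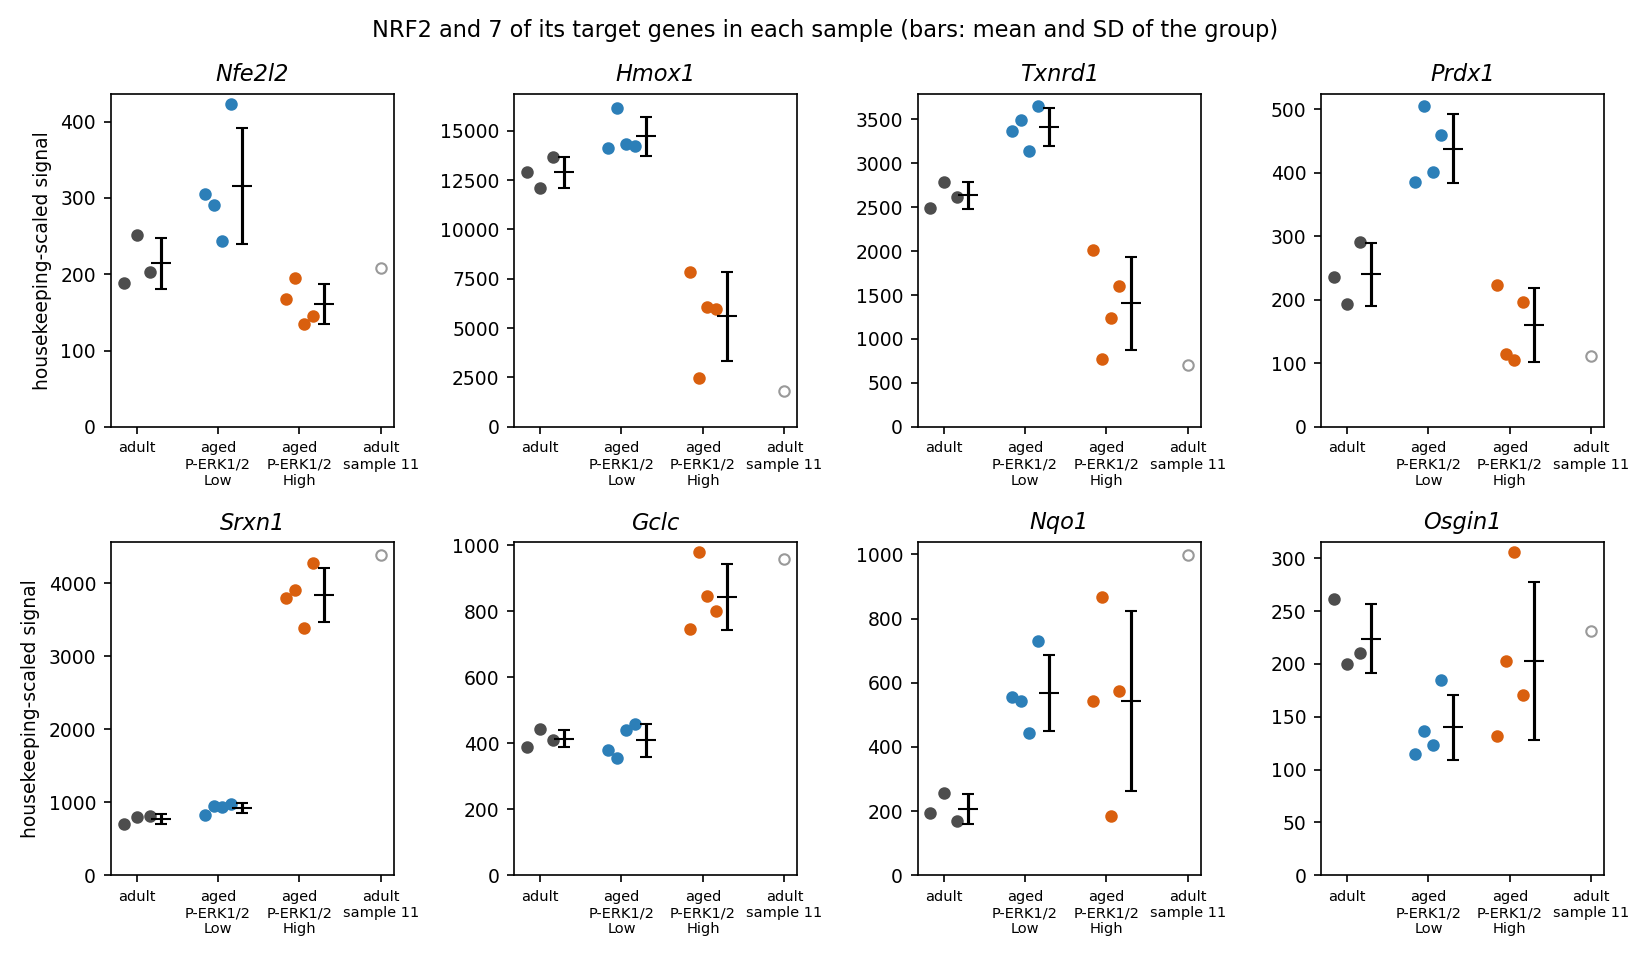
Housekeeping-scaled signal (linear vertical axes starting at 0) of the 8 genes in each sample, grouped as adult, aged P-ERK1/2 Low, aged P-ERK1/2 High and the excluded adult sample 11 (open circle), with bars for the mean and SD of each group. On this scale the 4 P-ERK1/2 High samples lie above all P-ERK1/2 Low and adult samples for Srxn1 and Gclc and below them for Hmox1 and Txnrd1 (on unscaled counts both genes overlap with both of these groups), and sample 11 sits with or beyond the P-ERK1/2 High samples for these 4 genes.

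Nfe2l2 itself had a low signal. It was 168, 195, 135 and 146 in P-ERK1/2 High samples 2, 5, 7 and 8, and 305, 291, 243 and 423 in P-ERK1/2 Low samples 3, 6, 9 and 12. Adult samples 1, 4 and 10 had 188, 252 and 203. Every P-ERK1/2 High value was below every P-ERK1/2 Low value, while the adult values overlapped both groups. The log2 difference between P-ERK1/2 High and Low was -0.95 (SE 0.24, limma adjusted p = 0.0053), short of the fold limit. It passed the limit without High sample 5 (-1.05) or Low sample 9 (-1.07), and also under quantile normalization and median-of-ratios scaling, with 0.72 on unscaled counts and 1.03 on the positive-control scale. With the 6 stable housekeeping genes it was -0.18 (SE 0.31, limma adjusted p = 0.63). Against adult samples the changes were 0.54 (SE 0.21, limma adjusted p = 0.099) in P-ERK1/2 Low and -0.41 (SE 0.25, limma adjusted p = 0.19) in P-ERK1/2 High.

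Hmox1, the heme oxygenase that opens heme and releases iron, biliverdin and carbon monoxide, was about equally high in P-ERK1/2 Low and adult microglia and lower in P-ERK1/2 High on the deposited scale, although the difference from P-ERK1/2 Low turned on the unscaled counts and the positive-control scale. Its signal was 7819.8, 2482, 6083 and 5989 in P-ERK1/2 High samples 2, 5, 7 and 8. The P-ERK1/2 Low samples 3, 6, 9 and 12 had 14146, 16165, 14320.3 and 14206, and adult samples 1, 4 and 10 had 12926, 12079 and 13646. High sample 5 was the lowest, and none of the 3 groups overlapped with another. The fold change between P-ERK1/2 High and Low was -1.51 (SE 0.32, limma adjusted p = 0.0023), a called difference of 2.85-fold as deposited, but 0.17 without scaling and 0.48 on the positive-control scale, neither of which was called. Whole counts of Hmox1 covered like ranges, 3472 to 6424 in P-ERK1/2 High and 3463 to 5353 in P-ERK1/2 Low, while the totals of these samples differed. The plain test with unequal variances and the 6 stable housekeeping genes (-0.74) did not call it.

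Hmox1 was also called lower in P-ERK1/2 High than in adult samples, with a log2 fold change of -1.32 (SE 0.37, limma adjusted p = 0.013), and it was negative under the 6 scalings, the smallest difference being -0.14 on the positive-control scale. The call was lost without adult sample 1 (-1.32), adult sample 10 (-1.28) or High sample 5 (-0.97), when the plain test was used, after subtraction of 20 counts (-1.32), without scaling (-0.49) and with the 6 stable housekeeping genes (-0.61). Between P-ERK1/2 Low and adult samples it differed by 0.19 (SE 0.13, limma adjusted p = 0.32), with no overlap of values, and its sign turned without scaling, on the positive-control scale and under quantile normalization.

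Nqo1, a reductase that converts quinones to hydroquinones, was the 1 member that passed both call limits between aged P-ERK1/2 Low and adult microglia as deposited. The adult signal was 195, 257 and 168 in samples 1, 4 and 10, against 556, 543, 444 and 730.2 in P-ERK1/2 Low samples 3, 6, 9 and 12. All P-ERK1/2 Low values were above all adult values, and the difference was 1.45 (SE 0.22, limma adjusted p = 0.0029), or 2.74-fold. It kept its call without each of the 7 samples in turn (1.32 to 1.62) and stayed positive but uncalled without scaling (0.60), on the positive-control scale (0.64) and with sample 11 among the adults (0.88).

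In P-ERK1/2 High samples Nqo1 was spread widely, at 544, 868, 185 and 574 in samples 2, 5, 7 and 8. Samples 2, 5 and 8 lay within or above the P-ERK1/2 Low range, and sample 7 lay inside the adult range. The coefficient of variation was 51.5% in P-ERK1/2 High, 20.9% in P-ERK1/2 Low and 22.1% in adult samples. The difference between P-ERK1/2 High and Low was -0.24 (SE 0.40, limma adjusted p = 0.63) and turned to 0.21 without sample 7. It was 1.43 on unscaled counts, 1.74 on the positive-control scale and 0.53 with the 6 stable housekeeping genes. Against adult samples the difference was 1.21 (SE 0.45, limma adjusted p = 0.047), not called as deposited and called without High sample 7 (1.66). It was also called without scaling, on the positive-control scale and with the 6 stable housekeeping genes.

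Gclc, the catalytic subunit of glutamate-cysteine ligase, which limits the rate of glutathione synthesis, was higher in P-ERK1/2 High under each of the 6 scalings. Its signal was 746, 979, 846 and 801 in P-ERK1/2 High samples 2, 5, 7 and 8. It was 379, 354, 441 and 459 in P-ERK1/2 Low samples 3, 6, 9 and 12, and 390.25, 443 and 410.15 in adult samples 1, 4 and 10. P-ERK1/2 High did not overlap with either of the other groups, which lay on top of each other. The difference was 1.04 (SE 0.21, limma adjusted p = 0.0014) against P-ERK1/2 Low and 1.02 (SE 0.23, limma adjusted p = 0.0047) against adult samples, each called and each close to the fold limit. Against P-ERK1/2 Low the call was lost without High sample 5 (0.97) or Low sample 6 (0.98), under median-of-ratios scaling (0.79) and under quantile normalization (0.41). Against adult samples it was lost without adult sample 1 (0.98) or High sample 5 (0.94), with a pseudocount of 20 (0.99), with sample 11 among the adults (0.72), under median-of-ratios scaling (0.64) and under quantile normalization (0.19). P-ERK1/2 Low and adult samples differed by -0.03 (SE 0.15, limma adjusted p = 0.91).

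Within the thioredoxin and peroxiredoxin arm, 3 genes of connected steps went opposite ways as deposited. Srxn1 encodes sulfiredoxin, which repairs peroxiredoxins whose active cysteine has been overoxidized. Its signal was 3798, 3905, 3388 and 4276 in P-ERK1/2 High samples 2, 5, 7 and 8. It was 823, 957, 931 and 976 in P-ERK1/2 Low samples 3, 6, 9 and 12, and 699, 799 and 818 in adult samples 1, 4 and 10. Each group was narrow, with a coefficient of variation of 7.41% to 9.51%, and no P-ERK1/2 High value came near the others. The rise was 2.06 (SE 0.20, limma adjusted p = 1.0e-05), or 4.16-fold, against P-ERK1/2 Low and 2.31 (SE 0.23, limma adjusted p = 5.3e-05), or 4.97-fold, against adult samples.

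The rise of Srxn1 against P-ERK1/2 Low was called in each of 11 alternative fits (1.51 to 4.04) and without each of the 8 samples in turn. Its whole counts ran from 3017 to 5464 for P-ERK1/2 High, from 238 to 348 for P-ERK1/2 Low and from 308 to 686 for adult samples. Against adult samples it was called in 11 of 12 alternative fits, the exception being the fit with sample 11 among the adults (1.69). Between P-ERK1/2 Low and adult samples Srxn1 differed by 0.26 (SE 0.14, limma adjusted p = 0.21).

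Txnrd1, the cytosolic thioredoxin reductase that keeps thioredoxin reduced with NADPH, had 2013, 769, 1241 and 1608 in P-ERK1/2 High samples 2, 5, 7 and 8. In P-ERK1/2 Low samples 3, 6, 9 and 12 it had 3368, 3495, 3143 and 3647, and in adult samples 1, 4 and 10 it had 2489, 2789 and 2621.5. The 3 groups did not overlap. It was called lower in P-ERK1/2 High than Low as deposited, by -1.36 (SE 0.29, limma adjusted p = 0.0021), but measured 0.32 on unscaled counts and 0.63 on the positive-control scale. It lost the call in the plain test with unequal variances and with the 6 stable housekeeping genes (-0.59). Against adult samples it was -0.99 (SE 0.33, limma adjusted p = 0.029), short of both call limits. It was called without High sample 2 (-1.19), under median-of-ratios scaling (-1.36) and under quantile normalization (-1.88). It passed the fold limit alone without High sample 8 (-1.08) or adult sample 1 (-1.03), and was 0.19 on the positive-control scale. P-ERK1/2 Low and adult samples differed by 0.37 (SE 0.13, limma adjusted p = 0.071).

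Prdx1, the peroxiredoxin that reduces hydrogen peroxide and is a substrate of sulfiredoxin, had 223, 115, 106 and 196 in P-ERK1/2 High samples 2, 5, 7 and 8 and 386, 505, 401 and 459 in P-ERK1/2 Low samples 3, 6, 9 and 12. Adult samples 1, 4 and 10 had 236, 193 and 292. P-ERK1/2 Low did not overlap with either group, whereas P-ERK1/2 High and adult values overlapped. The difference between P-ERK1/2 High and Low was -1.51 (SE 0.28, limma adjusted p = 8.6e-04), called as deposited, with 0.16 on unscaled counts and 0.47 on the positive-control scale. With the 6 stable housekeeping genes it was -0.75 and not called. P-ERK1/2 Low exceeded adult samples by 0.88 (SE 0.18, limma adjusted p = 0.011), short of the fold limit. It passed the limit without adult sample 10 (1.02), but was 0.023 without scaling and 0.062 on the positive-control scale. P-ERK1/2 High against adult samples gave -0.64 (SE 0.32, limma adjusted p = 0.13), called under quantile normalization (-1.18).

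Osgin1, an oxidative stress-induced growth inhibitor, had 131, 202, 305 and 171 in P-ERK1/2 High samples 2, 5, 7 and 8. It had 115, 137, 123 and 185 in P-ERK1/2 Low samples 3, 6, 9 and 12, and 261, 200.29 and 210.02 in adult samples 1, 4 and 10. P-ERK1/2 High overlapped with both other groups, and P-ERK1/2 Low lay below the adult samples. The difference between P-ERK1/2 Low and adult samples was -0.69 (SE 0.20, limma adjusted p = 0.039), short of the fold limit. It was called when 20 counts were subtracted from every count (-1.40), where its whole counts in P-ERK1/2 Low were 34 to 46, and also without scaling (-1.52) and on the positive-control scale (-1.48). P-ERK1/2 High differed from P-ERK1/2 Low by 0.49 (SE 0.28, limma adjusted p = 0.16), with calls on 4 alternative settings, namely 3 scalings (1.25 with the 6 stable housekeeping genes, 2.14 without scaling, 2.45 to the positive controls) and subtraction (1.29). Against adult samples the change in P-ERK1/2 High was -0.20 (SE 0.31, limma adjusted p = 0.62).

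**Figure D2:**
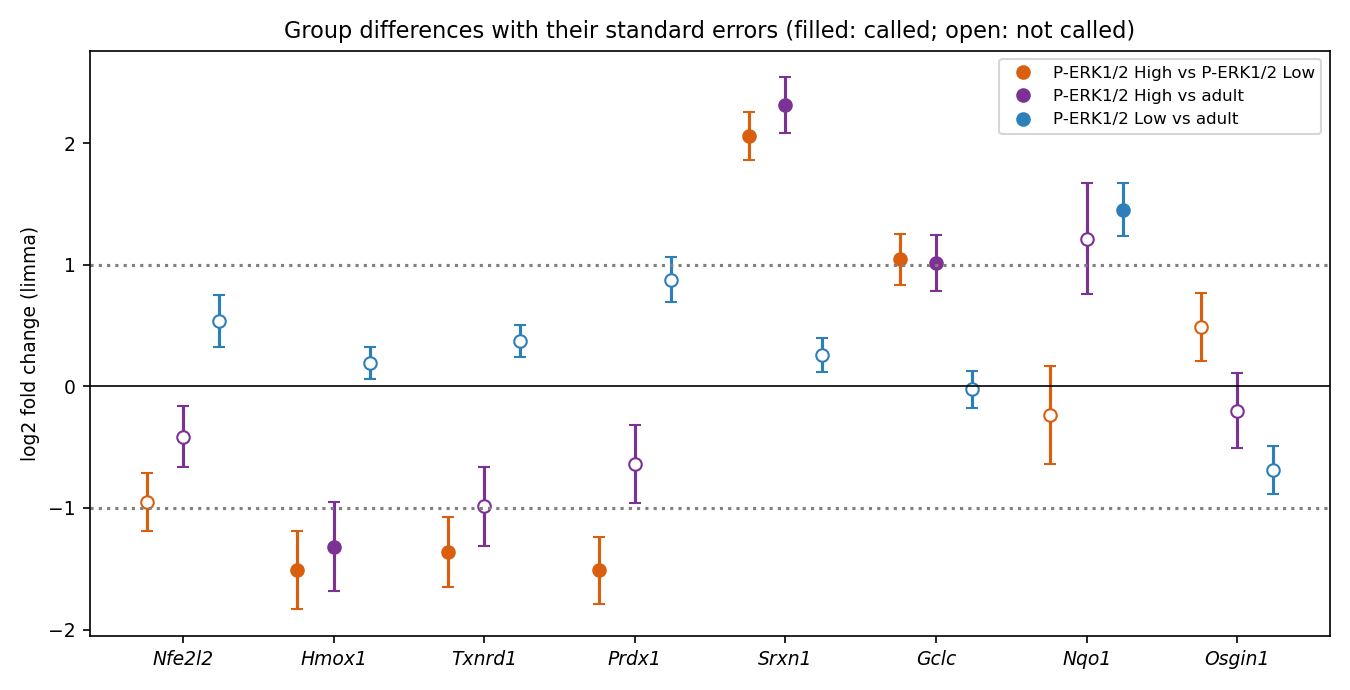
Log2 fold change of the 8 genes (limma, housekeeping-scaled signal) with its standard error for the 3 comparisons, with filled circles where a gene was called and dotted lines at the fold limit of 1. Srxn1 (2.06 and 2.31) and Gclc (1.04 and 1.02) lie above 0 and Hmox1 (-1.51 and -1.32) and Txnrd1 (-1.36 and -0.99) below 0 when P-ERK1/2 High is compared with P-ERK1/2 Low and with adult samples, the negative values against P-ERK1/2 Low turning positive on unscaled counts and on the positive-control scale. Against P-ERK1/2 Low, Hmox1 and Txnrd1 stay below the median of all genes on those scales too. Nqo1 is called between P-ERK1/2 Low and adult samples (1.45).

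Between P-ERK1/2 Low and adult microglia, 1 of 8 members was called higher (Nqo1), where 8.05% of all genes were, and 0 of 8 lower by limma, where 2.73% of all genes were. The plain test with unequal variances called the same gene. An unadjusted p under 0.05 was reached by 5 of the 8 members in limma, where 39.2% of all genes reached it, and by 7 in the plain test, where 31.4% of all genes did. Groups did not overlap for 6 of 8 members and 36.5% of all genes. The median log2 fold change was 0.32 over the members and 0.10 over all genes. Over all genes the split of 62 higher and 21 lower became 51 and 27 under median-of-ratios scaling, 52 and 35 under quantile normalization, 8 and 232 without scaling and 8 and 218 with the positive controls. For the members the split was 0 higher and 1 lower (Osgin1) on these last scales, and with sample 11 among the adult samples Prdx1 (1.14) was called in place of Nqo1.

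Between P-ERK1/2 High and adult microglia, 2 of 8 members were called higher (Srxn1 and Gclc), where 29.2% of all genes were, and 1 of 8 lower (Hmox1), where 7.66% of all genes were. Groups did not overlap for 4 of 8 members and 50.3% of all genes. The median log2 fold change was -0.31 over the members and 0.35 over all genes. The split was 3 higher and 0 lower (Srxn1, Gclc and Nqo1) without scaling, on the positive-control scale and with the 6 stable housekeeping genes, 1 higher and 2 lower under median-of-ratios scaling and 1 higher and 3 lower under quantile normalization. Over all genes it went from 225 higher and 59 lower to 164 and 114 under median-of-ratios scaling, 142 and 139 under quantile normalization, 352 and 5 with the 6 stable housekeeping genes, 347 and 2 without scaling, 420 and 1 with the positive controls, 159 and 14 in the plain test, and 49 and 0 with sample 11 added. With that sample 0 members were called by limma and 1, Srxn1, had an unadjusted p under 0.05, as 19.5% of all genes did, with Srxn1 standing at 1.69, Gclc at 0.72 and Hmox1 at -0.62. The 3 comparisons share samples, so their values are set side by side and were not compared with each other.

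**Figure D3:**
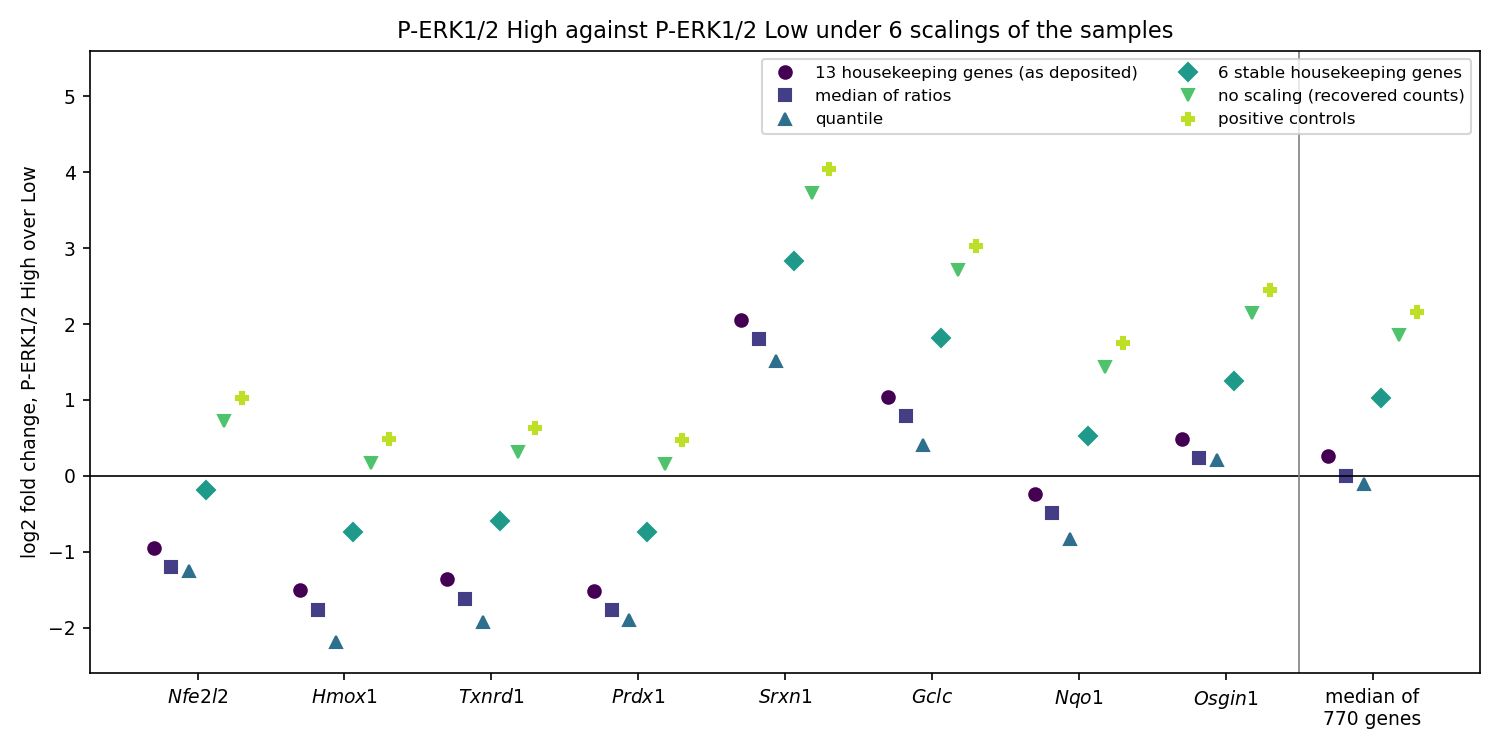
Log2 fold change of P-ERK1/2 High over Low samples (vertical axis) of the 8 genes and, at the right, the median of all 770 genes, under 6 scalings of the same counts (symbols). Srxn1 stays above 0 under each of them (1.51 to 4.04) and Gclc too, whereas Nfe2l2, Hmox1, Txnrd1 and Prdx1 are below 0 under 4 scalings and above 0 without scaling and with the positive controls, where the median of all genes stands at 1.86 and 2.15.

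To compare members without any scaling, each was divided by Hmox1 within its sample, so that the factor of the sample cancels. The level of such a ratio depends on the pair of probes and only its difference between groups is read. The log2 ratio of Srxn1 to Hmox1 was -1.04, 0.65, -0.84 and -0.49 in P-ERK1/2 High samples 2, 5, 7 and 8. It was -4.10, -4.08, -3.94 and -3.86 in P-ERK1/2 Low samples 3, 6, 9 and 12, and -4.21, -3.92 and -4.06 in adult samples 1, 4 and 10. P-ERK1/2 High lay apart from both other groups, which shared 1 range. The difference in mean log2 ratio was 3.57 against P-ERK1/2 Low and 3.63 against adult samples, with 4 of 4 P-ERK1/2 High samples above all others (exact two-sided permutation tests, p = 0.029 each, the smallest that 4 against 4 or 4 against 3 allow). Over the 21 ratios and comparisons tested, the smallest Benjamini-Hochberg adjusted p that resulted from these exact permutation tests was 0.086, so no ratio passed the correction at 0.05. Between P-ERK1/2 Low and adult samples the ratio differed by 0.07 (exact permutation p = 0.54).

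The ratio of Gclc to Hmox1 was higher in P-ERK1/2 High by 2.56 against P-ERK1/2 Low and by 2.34 against adult samples, without overlap (exact permutation p = 0.029 each, adjusted p = 0.086). The ratio of Osgin1 to Hmox1 was also higher against P-ERK1/2 Low, by 2.00, without overlap (exact permutation p = 0.029, adjusted p = 0.086). Txnrd1 and Prdx1 stayed close to Hmox1, with differences between P-ERK1/2 High and Low of 0.15 (exact permutation p = 0.31) and -0.01 (exact permutation p = 1). Relative to Hmox1, aged P-ERK1/2 Low samples had more Nqo1 and more Prdx1 than adult samples, by 1.27 and 0.69, each without overlap (exact permutation p = 0.029 each, adjusted p = 0.086). Osgin1 went the other way, by -0.88 without overlap (exact permutation p = 0.057, adjusted p = 0.13). Against adult samples, P-ERK1/2 High had higher ratios of Nqo1, by 2.54 (exact permutation p = 0.057, adjusted p = 0.13), and of Nfe2l2, by 0.90 (exact permutation p = 0.11, adjusted p = 0.20), without overlap. Unequal change within a sample does not say which of the pair of genes moved.

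**Figure D4:**
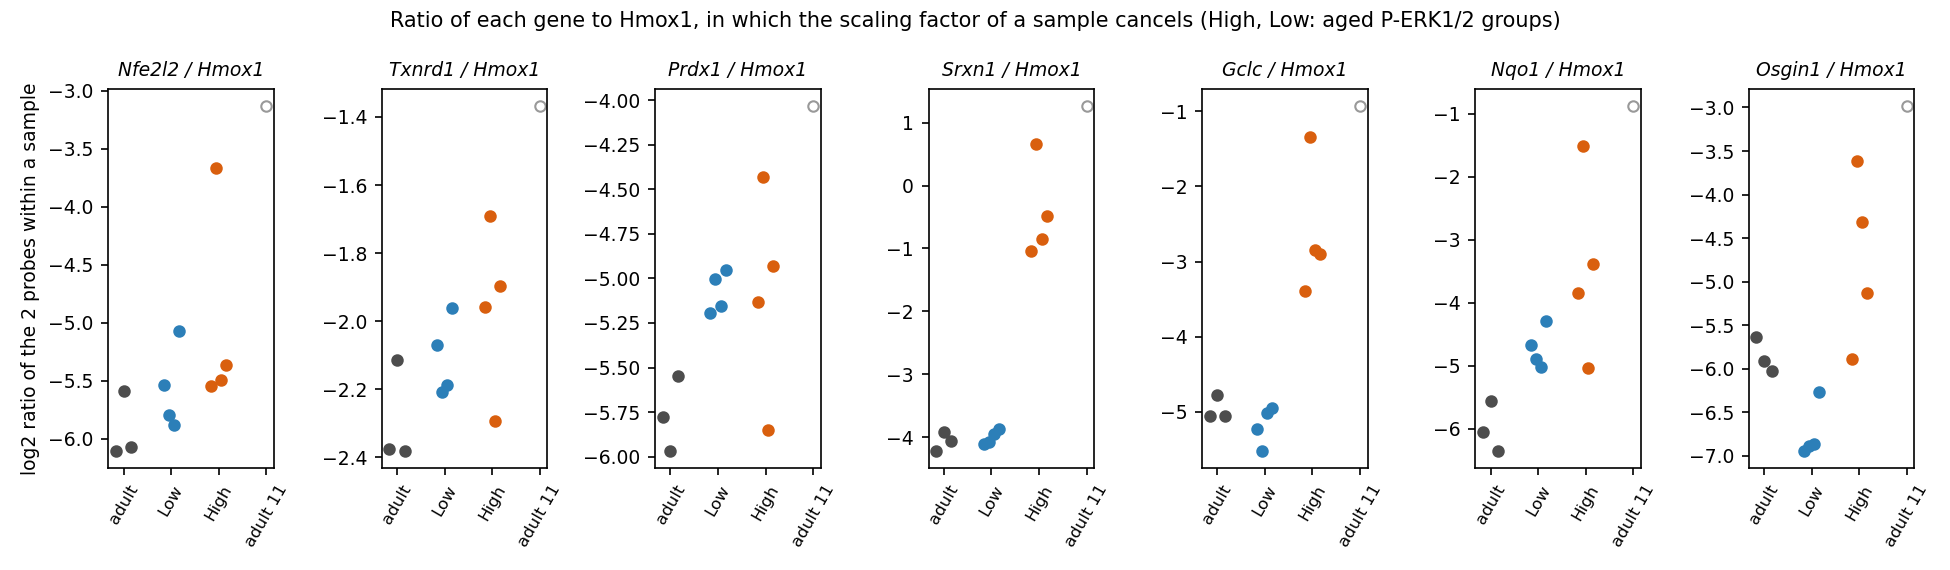
Log2 ratio of each gene to Hmox1 within each sample (vertical axes differ between panels and do not start at 0), for adult, aged P-ERK1/2 Low and aged P-ERK1/2 High samples and the excluded adult sample 11 (open circle). For Srxn1 the P-ERK1/2 High samples lie between -1.04 and 0.65 and all P-ERK1/2 Low and adult samples between -4.21 and -3.86, with sample 11 above all at 1.26.

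The profiles of the members over the 11 samples fell into like and unlike pairs. As a measure, log2 values of each gene were centred over the 11 samples, and the root mean square difference between a pair of genes was taken. The closest pair was Hmox1 and Txnrd1 (0.20 log2 units), followed by Txnrd1 and Prdx1 (0.31), and the most distant was Hmox1 and Srxn1 (1.78). Among all panel genes, Srxn1 was closest to Bcl10 (0.07), an adaptor of NF-kB signalling, then to the ribosomal protein gene Rpl29 (0.13) and Irak1 (0.20), a kinase of the Toll-like receptor pathway. Bcl10 had a signal of 1911 to 2463 in P-ERK1/2 High samples, 481 to 587 in Low samples and 377 to 454 in adult samples. Hmox1 was closest to the stress-induced transcription factor gene Atf3 (0.14), then to Vav1 (0.17) and the Polycomb gene Eed (0.18).

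Nqo1 was closest to Birc5 (0.17), Mcm5 (0.21) and Rrm2 (0.23), which act in chromosome segregation, replication licensing and deoxynucleotide synthesis. Birc5 was above background in 3 of 4 P-ERK1/2 High and 1 of 3 adult samples, so its distance rests in part on background values. Mcm5 and Rrm2 were above background in all 11 samples. Mcm5 had 115 to 622 in P-ERK1/2 High, 409 to 574 in the Low samples and 136 to 172 in adult samples. Nfe2l2 was closest to Bola2 (0.15), Tyrobp (0.16) and Pttg1 (0.17). These distances describe 11 samples in 3 groups that share their scaling factors.

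Other genes of the pathway on the panel were few. Of 9 NRF2 partners and further targets, 3 were called higher in P-ERK1/2 High than in P-ERK1/2 Low (Ep300, Gstm1 and Abcc3) and 1 lower (Cd36), beside 28.2% and 9.61% of all genes, so the share called higher was near the background. The number called higher ran from 1 to 8 over the 6 scalings, with Ep300 called under each. Ep300, an acetyltransferase that acts as a coactivator of NRF2, was 960.4 to 1312 in P-ERK1/2 High samples, 342 to 353 in Low samples and 286 to 378 in adult samples, a difference of 1.71 (SE 0.20, limma adjusted p = 3.6e-05) between the aged groups. Abcc3, an efflux transporter of conjugated compounds, was 665 to 801 against 224 to 347, a difference of 1.31 (SE 0.22, limma adjusted p = 4.7e-04). The glutathione transferase gene Gstm1 was 92.5 to 134 in P-ERK1/2 High, while 0 of 4 P-ERK1/2 Low samples were above background, so no fold is given. The median log2 fold change of this list was 0.44, beside 0.26 over all genes.

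Cd36, a scavenger receptor gene that NRF2 is also known to activate, went from 415 to 626 in adult samples to 2416 to 3085 in P-ERK1/2 Low, a difference of 2.48 (SE 0.18, limma adjusted p = 2.0e-04), and as deposited it was the 1 gene of 9 called in that comparison, beside 8.05% of all genes called higher. It was called under each of the 6 scalings, joined by 2 genes called lower (Sesn2 and Sqstm1) under quantile normalization, by 4 (also Crebbp and Maff) without scaling and by 3 on the positive-control scale. In P-ERK1/2 High it was 314 to 1679, a called difference of -1.56 against P-ERK1/2 Low (SE 0.44, limma adjusted p = 0.0097) that turned to 0.12 without scaling and 0.43 on the positive-control scale. Sqstm1, which encodes the autophagy receptor p62 that competes with NRF2 for KEAP1, was 2864 to 5930 in P-ERK1/2 High samples, 3324 to 3951 in Low samples and 5484 to 6110 in adult samples. P-ERK1/2 Low lay below the adult samples without overlap, by -0.72 (SE 0.14, limma adjusted p = 0.0073), short of the fold limit as deposited. The small MAF partner Maff was 204 to 288, 219 to 270 and 250 to 299 in the same order, within the spread of each group. Against adult samples, 3 of the 9 (Ep300, Gstm1 and Abcc3) were called higher in P-ERK1/2 High, near the 29.2% of all genes. Only Ep300 stayed called under median-of-ratios scaling, and under quantile normalization the 1 call was Sqstm1, lower. Under the other 3 scalings 5 of the 9 were called higher, with Cd36 and Marco added, although Marco was above background in 0 samples of either group. Beside them stood 347 of 770 genes without scaling, 352 with the 6 stable housekeeping genes and 420 with the positive controls.

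Of 8 genes for reactive oxygen sources and oxidative damage outside NRF2, 3 were called higher in P-ERK1/2 High than in each of the other groups (Ogg1, Nthl1 and Fdxr), a share not far from the 28.2% and 29.2% of all genes called higher there. The number called higher ran over the 6 scalings from 2 to 7 against P-ERK1/2 Low and from 2 to 6 against adult samples. The DNA glycosylases Ogg1 and Nthl1, which remove oxidized bases, had 131 to 218 and 136 to 238 in P-ERK1/2 High. Ogg1, Nthl1 and Fdxr did not exceed background in any P-ERK1/2 Low sample. The mitochondrial superoxide dismutase gene Sod2 was 293 to 525 in P-ERK1/2 High and 187 to 220 in P-ERK1/2 Low, and their difference of 0.79 (SE 0.23, limma adjusted p = 0.013) lay short of the fold limit. Among 4 genes of heme and iron handling, the haptoglobin-hemoglobin receptor gene Cd163 was 59.5 to 75.5 in P-ERK1/2 High and above background in no P-ERK1/2 Low or adult sample. Lcn2, which sequesters iron-loaded siderophores, was 437 to 721 in adult samples and 123 to 276 in P-ERK1/2 Low, a difference of -1.54 (SE 0.30, limma adjusted p = 0.0085), beside 2.73% of all genes called lower. In P-ERK1/2 High it was 46.5 to 326, also called lower than in adult samples, by -2.39 (SE 0.54, limma adjusted p = 0.0046), beside 7.66% of all genes. That call was lost on the positive-control scale (-1.22).

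Markers of tissue dissociation and of other cell types were read in the same groups. Of 9 genes known to respond to tissue dissociation, Atf3 (-1.49) and Ccl4 (-1.23) were called lower in P-ERK1/2 High than in P-ERK1/2 Low as deposited, with 0.19 and 0.45 on unscaled counts, beside 9.61% of all genes called lower. Without scaling 6 of the 9 were called higher, beside 595 of all 770 genes. Against adult samples, Fos, Egr1, Nfkbia and Ccl4 were called higher in P-ERK1/2 Low, beside 8.05% of all genes, and these calls were lost without scaling and on the positive-control scale. In P-ERK1/2 High, Fos, Nfkbia and Ccl3 were called higher than in adult samples, beside 29.2% of all genes, and Atf3 lower, beside 7.66%. The lower call was lost without scaling (-0.29) and the difference turned on the positive-control scale (0.06). Their summed signal was 5085 to 10471 in P-ERK1/2 High samples, 7451 to 9073 in Low samples and 4479 to 5559 in adult samples. Of 6 endothelial markers, 4 were called higher in P-ERK1/2 High than Low (3 to 6 over the 6 scalings), where 28.2% of all genes were as deposited, and the sum of the 6 was 622 to 1257 against 207 to 312, with 286 to 413 in adult samples. In P-ERK1/2 Low, 1 endothelial marker (Emcn, in 1 sample), 2 astrocyte markers (Gja1 and Sox9) and 0 T and NK cell markers were above background in any sample, so the endothelial and the T and NK cell sums of that group are scaled background for the most part. Of 6 astrocyte markers, 3 were called higher (2 to 5 over the scalings), beside the same 28.2%. The sums of the 6 were 1412 to 2143, 581 to 833 and 467 to 677 in the same order. Slc1a3 (-0.998) and S100b (-0.45) went the other way as deposited, both uncalled. With quantile normalization Slc1a3 was called lower, and likewise when scaled by median of ratios. Neither gene exceeded background in any P-ERK1/2 Low sample. Of 6 T and NK cell markers, 2 were called higher (2 to 6 over the scalings), a share near that of all genes. Their sums were 253 to 1004, 123 to 163 and 108 to 222, of which Cd3e made up 112 to 801 in P-ERK1/2 High, and it was the 1 marker of the 6 above background in each of those samples. Calls in the remaining lists between the aged groups were fewer or went both ways as deposited. Of 8 neuronal markers, 2 were called higher (Rbfox3 and Syn2) and 2 lower (Tubb3 and Nefl), of 8 oligodendrocyte markers 1 was called lower (Cnp), of 4 B cell markers 1 was called higher (Blk), and of 4 markers of border macrophages and monocytes 1 was called higher (Cd163). Rbfox3, Syn2, Nefl and Blk were above background in 0 of 4 P-ERK1/2 Low samples and Tubb3 in 1, so these calls rest in part on background values. Nefl exceeded background in 1 P-ERK1/2 High sample. The lower calls of Tubb3, Nefl and Cnp were lost with the 6 stable housekeeping genes, without scaling and with the positive controls. Of 3 neutrophil markers 0 were called by limma or by the plain test, and 0 had an unadjusted p under 0.05. Without scaling the markers called higher in these 5 lists numbered 5, 5, 3, 4 and 3, beside the same 595 of 770 genes. Against adult samples, where 29.2% of all genes were called higher, the calls in P-ERK1/2 High as deposited were 3 of 6 astrocyte, 2 of 6 endothelial (Flt1 and Esam), 1 of 6 T and NK cell (Cd3e), 2 of 8 neuronal, 2 of 4 B cell and 1 of 4 border macrophage and monocyte markers. The 4 markers called lower (Tie1, Mal, Ugt8a and Csf3r) lost that call without scaling, with the 6 stable housekeeping genes and with the positive controls, and Tie1, Mal and Ugt8a were not above background in any of these samples. No marker was listed at 0 in any sample. The part of these signals in the differences of Srxn1, Gclc and the other members was not tested.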

How the data were processed

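RNA of 12 sorted microglia samples was counted on the nCounter panel. The authors processed the counts in nSolver (version not given in the sources used here). The deposited values are signal values, and the table itself shows gene values to be whole counts multiplied by 1 factor per sample that equalises the geometric mean of 13 housekeeping genes, without background subtraction. All sample columns were mapped by sample number, with 0 unmapped. Factors and whole counts were recovered from the deposited table, where 99.8% of values were whole to within 0.1. Of 770 gene names, 763 matched a current RefSeq symbol (GRCm38.p6) and 7 a synonym. No samples were identical, and the chi-square per degree of freedom between samples of a group was 14.7 to 191 in P-ERK1/2 High, 2.08 to 11.3 in adult and 1.15 to 3.45 in P-ERK1/2 Low samples, so the P-ERK1/2 Low samples differed little beyond counting noise. All were kept as separate samples, and each pair differed by a chi-square test over genes (largest p = 0.0025). That test cannot tell separate pools of mice from repeat measurements of 1 pool.

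Pairs of groups were fitted with limma 3.58.1 in R 4.3.3 on log2(signal + 1) over 770 genes without a filter, with adult sample 11 left out. Ratios were compared with exact permutation tests over samples, enumerated in Python with numpy 2.4.6, and chi-square p-values came from scipy 1.17.1. The code was tested on simulated data. Named genes were the members, fixed lists of pathway and marker genes, and the 3 genes nearest in profile to Srxn1, Hmox1, Nqo1 and Nfe2l2. The members and lists were chosen with earlier results of these data known. Alternatives covered pseudocounts, a filter, 5 other scalings, subtraction, the spread, the test, call limits and samples.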

Additional observations from a re-analysis of the deposited data

Results flagged for a closer look

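Among the 16 groups of 4 samples tested (8 members in both aged groups), 1 held a sample far from the others, where chance gives about 1 in 20. This was Hmox1 in P-ERK1/2 Low sample 6, at 16165 against 14146 to 14320.3 in the other 3 samples. The gap to its nearest neighbour took 0.908 of the range of the group, beyond Dixon's critical value for 4 samples. Without this sample the difference between P-ERK1/2 High and Low was still called as deposited.

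Adult sample 11, which the submitters excluded, lay above the 3 kept adult samples for Nqo1 (997 against 168 to 257), Gclc (957 against 390.25 to 443) and Srxn1 (4384 against 699 to 818). Its Srxn1 and Nqo1 values also exceeded those of all P-ERK1/2 High samples. The same sample had the lowest Hmox1 (1831) and Txnrd1 (709) of the 12. Its positive control probes had a geometric mean of 286 counts, against 954 to 1460 in the other samples.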

How the results depend on the processing

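Of the log2 fold changes recomputed for P-ERK1/2 High against Low under other settings, 123 kept direction and call, 8 gained a call, 9 lost one and 12 changed sign. For P-ERK1/2 Low against adult samples these counts were 130, 5, 3 and 14, and for P-ERK1/2 High against adult samples 118, 8, 16 and 10. The count of called members (5) in P-ERK1/2 High against Low was 3 with the 6 most stable housekeeping genes and also 3 when variances were taken as unequal in the plain test. The count (1) for P-ERK1/2 Low against adult samples was 2 after subtraction of 20 counts, 3 at an adjusted p under 0.05 without a fold limit, and 1 to 2 with each sample left out. The count (3) for P-ERK1/2 High against adult samples was 0 with all 4 adult samples, 5 at an adjusted p under 0.05 without a fold limit, and 1 to 4 with each sample left out, the lowest without adult sample 1 or High sample 5. In P-ERK1/2 High against Low the sign changed for Nfe2l2, Hmox1, Nqo1, Txnrd1 and Prdx1 without scaling (0.72, 0.17, 1.43, 0.32 and 0.16) and with scaling to the positive controls (1.03, 0.48, 1.74, 0.63 and 0.47). Nqo1 was 0.53 with the 6 stable housekeeping genes and -0.53 to 0.21 with each sample left out. In P-ERK1/2 Low against adult samples it changed for Nfe2l2, Hmox1, Txnrd1 and Srxn1 without scaling (-0.31, -0.66, -0.48 and -0.60) and with the positive controls (-0.27, -0.62, -0.44 and -0.56), for Hmox1 (-0.92) and Srxn1 (-0.18) under quantile normalization and for Srxn1 (-0.37) with all 4 adult samples. Gclc was -0.085 to 0.040 with each sample left out. In P-ERK1/2 High against adult samples it changed for Nfe2l2, Prdx1 and Osgin1 with the 6 housekeeping genes (0.30, 0.070 and 0.51), without scaling (0.41, 0.18 and 0.62) and with the positive controls (0.75, 0.53 and 0.97), and there also for Txnrd1 (0.19). With all 4 adult samples the difference in the log2 ratio of Srxn1 to Hmox1 was -1.26 for P-ERK1/2 Low and 2.30 for P-ERK1/2 High, and with each sample left out it was -0.0072 to 0.14 for P-ERK1/2 Low. The cause of these changes was not tested. Scaling to the positive controls was added after seeing the data, and a quasi-likelihood count model on the recovered counts was not run. Low whole counts limit Nfe2l2 (83 to 103) and Osgin1 (34 to 46) in P-ERK1/2 Low.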
